A study of Mus musculus with 8 samples.

Results

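The genes described here are 10 targets of the transcription factor p53, out of 23278 genes measured: Cdkn1a, Sesn2, Plk2, Gtse1, Psrc1, Dcxr, Phlda3, Perp, Aen and Ccng1. They were chosen from earlier results on these data because their levels were higher in captures from mice with spinal muscular atrophy (SMA), so the SMA against WT values below describe that choice and carry no test. RNA-seq was performed on laser captures from the lumbar cord of FVB/N pups on postnatal day 1, before the disease shows. The 4 groups were SMA motor neurons, WT motor neurons, SMA white matter and WT white matter, with 2 libraries each. SMA mice had the genotype SMN2+/+;SMNΔ7+/+;Smn-/-. Their own Smn gene is missing, and human SMN2 plus an SMN transgene without exon 7 stand in for it. The other mice are labelled WT only, so whether they hold the human transgenes is not stated. Captures were cut from hematoxylin-stained sections, the labels name no marker gene used to pick them, and the number of animals behind a library is not given.

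The protein p53 is held at a low level by the ubiquitin ligase Mdm2 and accumulates after DNA damage, ribosomal stress and other insults. It binds paired copies of a short DNA half-site and switches on genes that halt the cell cycle, repair DNA, limit growth or start apoptosis. In neurons, which no longer divide, the same programme is known above all for its link to cell death, and p53 activation has been described in SMA mouse motor neurons.

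Promoter windows of these genes were searched for the p53 half-site, a self-complementary motif of 10 bases that reads the same on both strands. Windows from 250 bases before to 50 bases after an annotated start were taken from RefSeq on GRCm38.p6. All of the genes but Perp, 9 of the 10, had 13 windows, some of them overlapping. An exact half-site stood in 5 of these 13 windows, in Cdkn1a, Gtse1, Ccng1 and both overlapping windows of Aen, against 2745 of all 32851 windows (8.36%). The genes were chosen as known p53 targets, so this share is a description. A half-site joined end to end to a second 10-mer that fits the core of the motif and misses at most 1 of its outer letters was present in Cdkn1a and Gtse1, and in 18 of all 32851 windows (0.055%). Windows of those 4 genes follow, with the half-sites and the paired 10-mers in capitals.
Cdkn1a, chr17:29090729-29091028, + strand: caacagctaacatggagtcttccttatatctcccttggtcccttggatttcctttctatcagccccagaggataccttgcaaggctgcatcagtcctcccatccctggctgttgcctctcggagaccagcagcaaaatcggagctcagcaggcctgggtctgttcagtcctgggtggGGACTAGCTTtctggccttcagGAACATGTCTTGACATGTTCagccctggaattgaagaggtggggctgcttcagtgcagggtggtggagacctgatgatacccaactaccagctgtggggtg
Gtse1, chr15:85859696-85859995, + strand: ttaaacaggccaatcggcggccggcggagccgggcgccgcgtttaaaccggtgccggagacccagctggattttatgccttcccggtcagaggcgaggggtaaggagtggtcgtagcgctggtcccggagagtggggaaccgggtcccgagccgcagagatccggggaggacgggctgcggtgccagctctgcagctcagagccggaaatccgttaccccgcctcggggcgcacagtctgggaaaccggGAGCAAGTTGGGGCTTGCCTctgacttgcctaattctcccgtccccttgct
Ccng1, chr11:40755237-40755536, - strand: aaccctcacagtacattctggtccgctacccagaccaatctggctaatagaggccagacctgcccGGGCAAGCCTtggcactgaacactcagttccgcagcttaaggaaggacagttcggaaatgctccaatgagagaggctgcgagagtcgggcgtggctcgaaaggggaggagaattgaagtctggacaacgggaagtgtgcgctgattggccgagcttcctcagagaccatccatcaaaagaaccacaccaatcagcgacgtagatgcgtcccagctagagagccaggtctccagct
Aen, chr7:78895808-78896107, + strand: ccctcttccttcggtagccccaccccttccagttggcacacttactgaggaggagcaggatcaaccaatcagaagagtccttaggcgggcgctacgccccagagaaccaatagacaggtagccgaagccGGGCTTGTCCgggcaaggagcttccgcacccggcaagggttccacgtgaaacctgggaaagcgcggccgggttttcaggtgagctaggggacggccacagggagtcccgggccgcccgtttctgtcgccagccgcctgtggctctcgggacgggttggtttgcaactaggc
In Cdkn1a the 20-base pair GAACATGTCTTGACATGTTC began 51 bases before the upstream start, and another exact half-site, GGACTAGCTT, began 73 bases before it. The second Cdkn1a window, at chr17:29093519-29093818, had none. In Gtse1 the pair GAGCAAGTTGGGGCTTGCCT spanned the downstream start, and its exact half-site, GGGCTTGCCT, began 9 bases after that start. A single half-site, GGGCAAGCCT, began 185 bases before the Ccng1 start, and in Aen GGGCTTGTCC began 121 bases before the downstream start. Windows of Sesn2, Plk2, Psrc1, Dcxr and Phlda3 held no exact half-site, which says only that these letters are not in these 300 bases.

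The deposited values are RPKM, reads scaled to the length of the gene model and the size of the library, and 77.5 to 102.8 M reads per library stood behind that scaling. Smn1, the targeted gene, was listed at 0 in all 4 SMA libraries, against 6.82 and 2.93 RPKM in WT motor neurons and 5.30 and 14.3 RPKM in WT white matter. The motor neuron markers Chat, Isl1 and Mnx1 lay between 5.59 and 34.9 RPKM in the motor neuron libraries and at 0.905 RPKM or less in white matter, while the myelin gene Mbp was at 66.6 and 39.3 RPKM in SMA motor neurons, 33.8 and 17.0 in WT motor neurons and 840 RPKM or more in every white matter library. The SMA motor neuron libraries were the least alike of any group, with a correlation across genes of 0.889 against 0.936 to 0.963 elsewhere. Xist, made from the inactive X of females, lay between 12.6 and 37.0 RPKM in the replicate 1 libraries and did not exceed 0.0581 RPKM in the replicate 2 libraries, so replicate number goes with sex. Log2 differences are on the log2(RPKM + 1) scale, which understates the change of low genes, and errors are the standard error (SE) of the fit. Over all 13948 genes with at least 1 RPKM in at least 2 libraries, the median SMA minus WT difference was -0.05 in motor neurons and 0.27 in white matter. Under median-of-ratios scaling the white matter shift was 0.00, so white matter differences are also given relative to the median.

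Cdkn1a encodes p21, the inhibitor of cyclin-dependent kinases through which p53 stops the cell cycle. It stood at 269 and 245 RPKM in SMA motor neurons, against 60.0 and 58.4 RPKM in WT motor neurons. In white matter it stood at 78.9 and 77.2 RPKM in SMA and at 21.0 and 36.0 RPKM in WT. None of the 4 groups overlapped, and the order from high to low was SMA motor neurons, SMA white matter, WT motor neurons, WT white matter. In motor neurons the SMA mean was 4.34 times the WT mean, a log2 difference of 2.10 ± 0.27, and in white matter it was 2.74 times the WT mean, 1.47 ± 0.27 (SE, n = 2 libraries per group). Each motor neuron value rested on many reads, 41958 and 38565 in SMA and 10430 and 8646 in WT. Within the Xist-positive libraries the motor neuron ratio was 4.48, and within the Xist-negative ones 4.20. The white matter ratios were further apart, 3.76 and 2.15, with a 1.72-fold gap between the WT libraries. Among all genes ranked by RPKM, Cdkn1a was number 117 and 118 in the SMA motor neuron libraries and number 801 and 766 in WT. In bulk captures more cells with a transcript and more transcript per cell cannot be told apart.

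**Figure D1:**
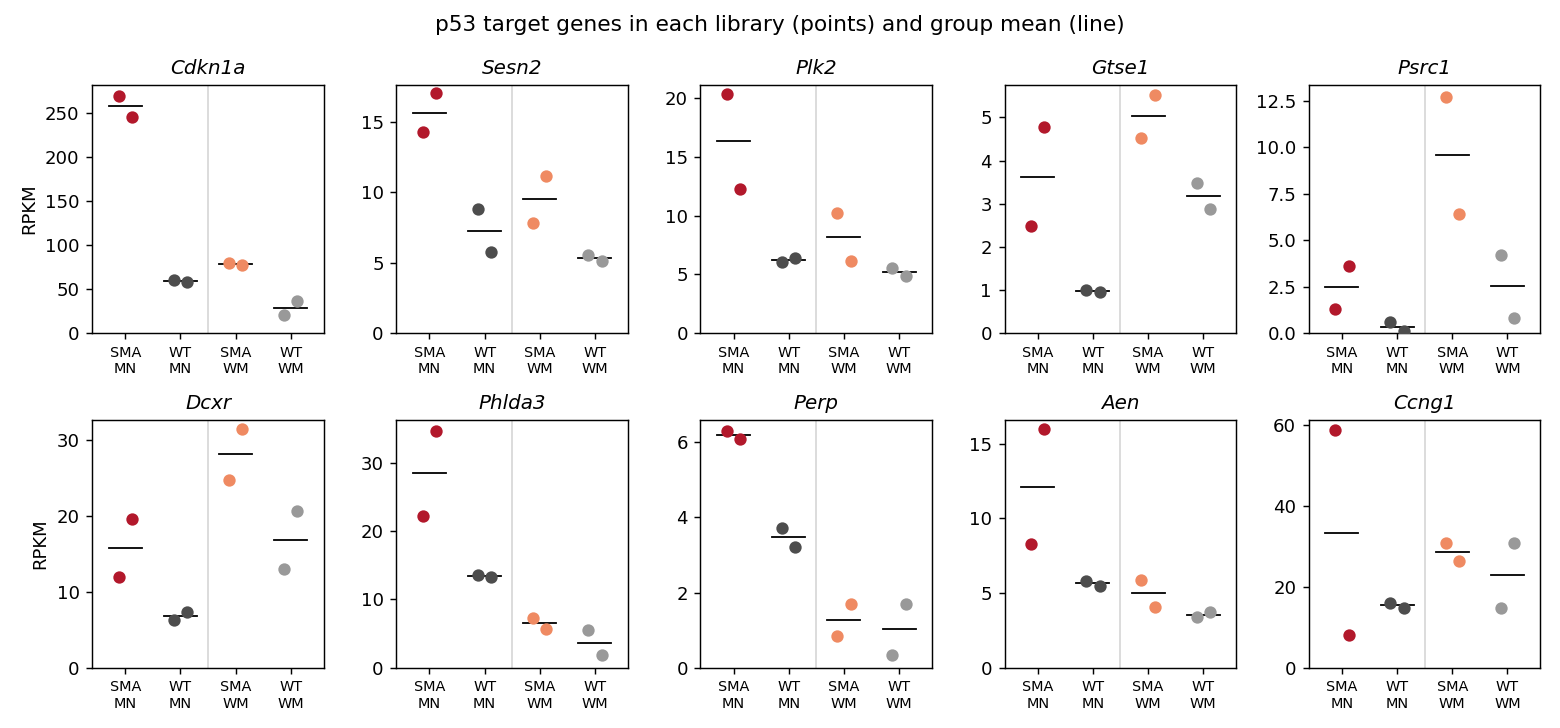
RPKM of each of the 10 genes (vertical axes, from 0) in every library (points) of SMA and WT motor neurons (MN) and SMA and WT white matter (WM), with the mean of the 2 libraries as a line. Cdkn1a reaches 245 and 269 RPKM in SMA motor neurons, and Ccng1 is split between 58.9 and 8.05 RPKM there.

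Gtse1, Psrc1, Ccng1 and Plk2 also act in the cell cycle. Gtse1 encodes a microtubule-associated protein of S and G2 phase that binds p53. It was at 2.48 and 4.77 RPKM in SMA motor neurons, against 0.992 and 0.963 RPKM in WT motor neurons (log2 1.18 ± 0.36). In white matter it was at 4.52 and 5.53 RPKM in SMA, against 3.48 and 2.88 RPKM in WT (0.53 ± 0.36). The SMA libraries were thus the higher ones in either region, and the wider ratio of means, 3.71, was in motor neurons, where WT levels were near 1 RPKM. There the log2 difference was 1.72 with a pseudocount of 0.1 and 1.81 by voom.

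Psrc1, which encodes a protein of the mitotic spindle, varied widely between libraries. In motor neurons it was at 1.30 and 3.61 RPKM in SMA and at 0.581 and 0.0890 RPKM in WT, the lowest of these from 12 reads (log2 1.31 ± 0.57). In white matter it was at 12.7 and 6.40 RPKM in SMA and at 4.22 and 0.832 RPKM in WT (1.70 ± 0.57). The groups did not overlap in either region, but the WT libraries differed 6.53-fold between themselves in motor neurons and 5.07-fold in white matter. Without SMA motor neuron replicate 2 the motor neuron log2 difference was 0.81, and without WT white matter replicate 2 that of white matter was 0.95. Which region had the larger Psrc1 difference depended on the scale. It was -0.39 ± 0.81 for motor neurons less white matter on the log2(RPKM + 1) scale, but the ratio of means was 7.32 in motor neurons against 3.78 in white matter. With a pseudocount of 0.1 the log2 differences were 2.66 in motor neurons, against 2.19 in white matter, and by voom on recovered reads 3.17 against 2.31.

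Plk2, a polo-like kinase that in neurons also acts at synapses, was at 20.4 and 12.3 RPKM in SMA motor neurons, against 6.08 and 6.38 RPKM in WT motor neurons (log2 1.22 ± 0.35). Its white matter levels were 10.3 and 6.17 RPKM in SMA and 5.57 and 4.90 RPKM in WT (0.53 ± 0.35). Replicate 1 was the higher SMA library of each pair, and groups did not overlap. Without SMA white matter replicate 1 the white matter difference was 0.20.

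Ccng1 encodes cyclin G1, which takes part in the feedback from p53 to Mdm2. It was at 58.9 and 8.05 RPKM in SMA motor neurons, above and below both WT motor neuron libraries at 16.1 and 14.9 RPKM. The 7.32-fold gap between the SMA libraries was the widest within any group among the 10 genes, on 16763 and 2311 reads. White matter groups overlapped as well, at 30.8 and 26.5 RPKM in SMA and 14.8 and 30.9 RPKM in WT. The log2 difference of 0.50 ± 0.71 in motor neurons became -0.87 without SMA motor neuron replicate 1 and 1.86 without SMA motor neuron replicate 2. In white matter it was 0.40 ± 0.71, and -0.11 without WT white matter replicate 1.

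Sesn2 and Dcxr have metabolic roles. Sesn2 encodes a sestrin, a stress-induced protein that restrains the growth kinase complex mTORC1. It was at 14.2 and 17.0 RPKM in SMA motor neurons, against 8.79 and 5.72 RPKM in WT motor neurons (log2 1.03 ± 0.33), and at 7.84 and 11.1 RPKM in SMA white matter, against 5.56 and 5.11 RPKM in WT white matter (0.71 ± 0.33). Both SMA libraries lay above both WT libraries in each region. Dcxr encodes a reductase of dicarbonyls and xylulose. It was at 11.9 and 19.7 RPKM in SMA motor neurons and at 6.26 and 7.34 RPKM in WT motor neurons (log2 1.07 ± 0.34), and at 24.8 and 31.5 RPKM in SMA white matter and 13.02 and 20.6 RPKM in WT white matter (0.73 ± 0.34). As with Sesn2, no SMA library reached down to a WT one. The white matter difference of Dcxr was 0.42 without WT white matter replicate 1.

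Phlda3, Perp and Aen belong to the arm of the response that limits survival. Phlda3 encodes a small lipid-binding protein that, in human cells, competes with the survival kinase AKT for the membrane. Its level was 22.3 and 34.7 RPKM in SMA motor neurons, against 13.6 and 13.3 RPKM in WT motor neurons (log2 1.00 ± 0.42), and 7.36 and 5.71 RPKM in SMA white matter, against 5.56 and 1.80 RPKM in WT white matter (0.80 ± 0.42). The gap between the closest libraries of white matter was small, 5.71 RPKM in SMA against 5.56 RPKM in WT, and the log2 difference there was 0.19 without WT white matter replicate 2.

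Perp, a membrane protein of cell junctions and an apoptosis effector, was at 6.30 and 6.10 RPKM in SMA motor neurons, against 3.72 and 3.22 RPKM in WT motor neurons (log2 0.69 ± 0.41). In white matter it was at 0.832 and 1.71 RPKM in SMA and at 0.345 and 1.70 RPKM in WT, where the groups overlapped (0.22 ± 0.41). That white matter difference was -0.28 without WT white matter replicate 1 and -0.06 without SMA white matter replicate 2. Aen, a nuclease that enhances apoptosis, was at 8.26 and 16.0 RPKM in SMA motor neurons, against 5.84 and 5.50 RPKM in WT motor neurons (log2 0.91 ± 0.37), and at 5.88 and 4.10 RPKM in SMA white matter, against 3.39 and 3.70 RPKM in WT white matter (0.38 ± 0.37). Aen did not overlap between SMA and WT in either region, and its log2 difference was 0.47 in motor neurons without SMA motor neuron replicate 2 and 0.17 in white matter without SMA white matter replicate 1.

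Side by side, 9 of the 10 genes had both SMA libraries above both WT libraries in motor neurons, and Ccng1 was the exception, where 12.7% of all 13948 genes had that order. In white matter it held for 8 of 10, without Perp and Ccng1, where 39.7% of all genes had it. The same 8 held in both regions, against 5.91% of all genes. These counts follow from how the genes were chosen. They use RPKM without rescaling, so those of white matter include the general shift there. The median log2 difference of the 10 was 1.05 in motor neurons, where that of all genes was -0.05, and 0.62 in white matter, where that of all genes was 0.27. Relative to those medians Cdkn1a stood at 2.15 in motor neurons, with 1.20 in white matter, and Psrc1 at 1.36 and 1.43. Plk2 (1.27 and 0.25), Gtse1 (1.23 and 0.25), Aen (0.96 and 0.11), Ccng1 (0.55 and 0.12) and Perp (0.74 and -0.05) were within 1 SE of the white matter median and further from that of motor neurons. Ccng1 was within 1 SE of the motor neuron median too. For motor neurons less white matter the log2 differences were 0.69 ± 0.50 (Plk2), 0.66 ± 0.51 (Gtse1), 0.53 ± 0.52 (Aen), 0.46 ± 0.58 (Perp) and 0.10 ± 1.00 (Ccng1). The median of all genes there was -0.33. The sign of Perp relative to the white matter median turned with the scaling, being 0.06 for median-of-ratios values and 0.07 for quantile-normalized ones. Across all genes no SMA against WT difference passed limma with Benjamini-Hochberg adjustment at 0.05, so 0% were called in either region, and 0% over both. At an unadjusted p under 0.05 stood 609 genes in motor neurons (4.37%), 880 for white matter (6.31%) and 836 over both regions (5.99%). None of the 10 genes was therefore called in these contrasts. By voom on recovered reads, tried after seeing the data, the calls over all genes were 0, 1 and 1.

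**Figure D2:**
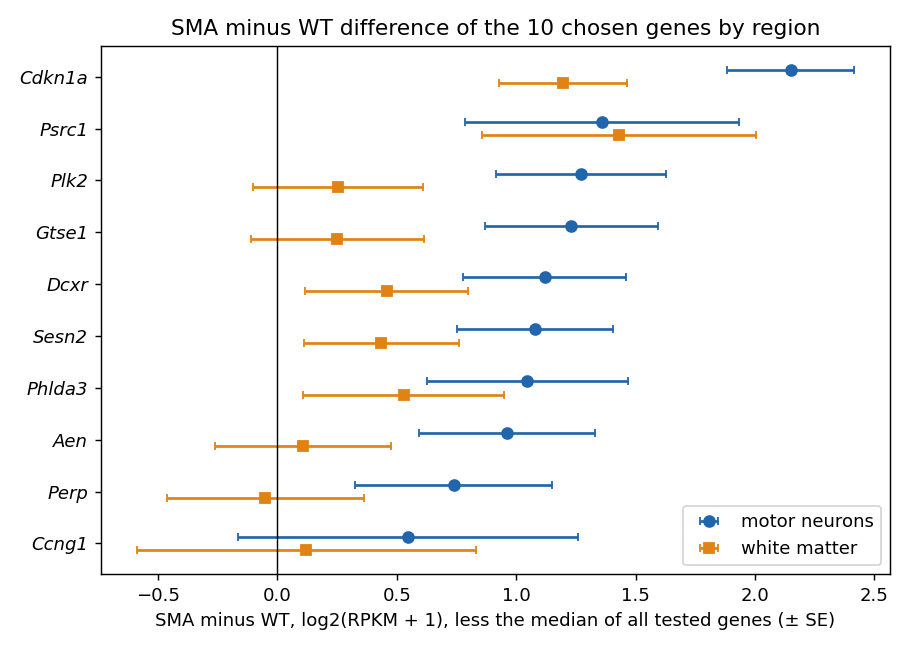
SMA minus WT difference in log2(RPKM + 1), less the median of all tested genes, for each of the 10 genes in motor neurons (circles) and white matter (squares), with the SE of the fit as bars. Cdkn1a stands at 2.15 in motor neurons (1.20 in white matter), and Perp and Aen lie near 0 in white matter.

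The difference between motor neurons and white matter, averaged over SMA and WT, was not used to choose these genes and is orthogonal to every SMA against WT contrast in this balanced design. Its p-values use the same estimate of spread as those contrasts, so the choice of genes can still bear on the number called. The labels do not say whether captures of the 2 regions came from the same animals. Here the 10 genes split: Phlda3, Perp, Cdkn1a and Aen were higher in motor neuron captures, and Psrc1, Dcxr and Gtse1 were lower there. These 7 of 10 passed limma with Benjamini-Hochberg adjustment, 4 higher and 3 lower, where 46.4% of all genes passed (23.5% higher and 22.9% lower). Phlda3 was higher by a log2 of 1.85 ± 0.30 (limma adjusted p = 8.5e-04), the widest difference with a pseudocount of 1. With 0.1 it was 2.06, after Psrc1 at -2.24 and Perp at 2.13. All 4 motor neuron libraries, from 13.3 to 34.7 RPKM, lay above all 4 white matter libraries, from 1.80 to 7.36 RPKM. Perp was higher by 1.46 ± 0.29 (limma adjusted p = 0.00291), again with all motor neuron libraries above all white matter libraries. That order held for these 2 genes of the 10, and for 21.5% of all genes. Cdkn1a was higher by 1.39 ± 0.19 (limma adjusted p = 3.2e-04). Its SMA white matter libraries, at 77.2 and 78.9 RPKM, exceeded the WT motor neuron libraries, at 58.4 and 60.0 RPKM, so the regions separated within each genotype but not over both. Aen was higher by 0.82 ± 0.26 (limma adjusted p = 0.0278).

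On the other side, the spindle gene Psrc1 was lower in motor neurons by a log2 of -1.43 ± 0.41 (limma adjusted p = 0.0166), Dcxr by -0.99 ± 0.24 (0.00805) and Gtse1 by -0.75 ± 0.26 (0.0369). The motor neuron mean of Psrc1 was 0.256 times the white matter mean in SMA and 0.133 times in WT. Sesn2 (0.52 ± 0.23), Plk2 (0.56 ± 0.25) and Ccng1 (-0.40 ± 0.50) did not pass (limma adjusted p = 0.0917, 0.0929 and 0.546). Proliferation markers, the other genes of dividing cells in these captures, summed to 25.8 to 47.9 RPKM in SMA motor neurons, 31.1 to 42.8 in WT motor neurons, 114 to 216 in SMA white matter and 132 to 138 RPKM in WT white matter over 14 genes. Their part in the Gtse1 and Psrc1 differences was not tested. The Cdkn1a, Phlda3, Perp and Dcxr calls held in all 16 alternatives. Gtse1 was no longer called in 10 of 15 alternatives, among them every left-out library other than SMA motor neuron replicate 2, Aen not without any library other than SMA motor neuron replicate 1 or SMA white matter replicate 1, and Psrc1 not without WT motor neuron replicate 2, SMA white matter replicate 1 or WT white matter replicate 1, or with no filter on low values.

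**Figure D3:**
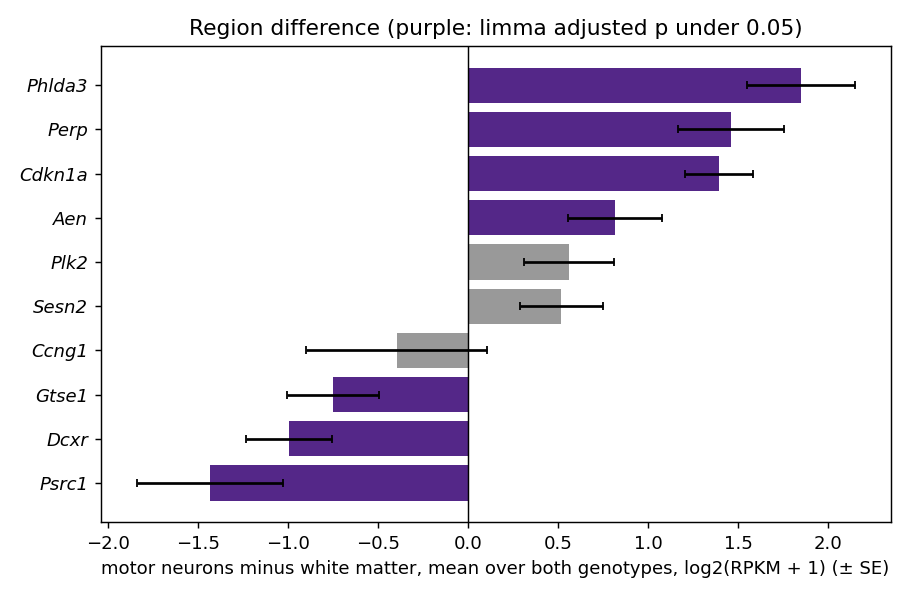
Motor neuron minus white matter difference in log2(RPKM + 1), averaged over SMA and WT (n = 4 libraries per region), for the 10 genes, with the SE of the fit as bars and purple where limma's adjusted p was under 0.05. Bars run from 1.85 for Phlda3 to -1.43 for Psrc1, and Plk2, Sesn2 and Ccng1 are grey.

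The profiles across the 8 libraries were compared with that of Cdkn1a by Pearson correlation on the log2(RPKM + 1) scale, as a description over libraries that share group, region and depth. Sesn2 (r = 0.91), Plk2 (0.88), Aen (0.86), Perp (0.81) and Phlda3 (0.79) ran close to Cdkn1a, and Gtse1 (0.18), Ccng1 (0.15), Dcxr (0.11) and Psrc1 (0.06) did not. The second set holds the 3 genes that were lower in motor neurons than in white matter. Among 11938 genes with a range of at least 1 on that scale, the 5 most like Cdkn1a were Gpx3 (r = 0.98), a secreted glutathione peroxidase, Mier2 (0.96), Rbm42 (0.96), Lmna (0.95), which encodes the nuclear lamins A and C, and Kctd20 (0.95). Gpx3 was at 43.6 and 43.1 RPKM in SMA motor neurons, 21.0 and 25.4 RPKM in WT motor neurons, 24.5 and 27.5 RPKM in SMA white matter and 14.6 and 15.9 RPKM in WT white matter. Lmna was at 17.5 and 21.2 RPKM in SMA motor neurons, 8.03 and 7.07 in WT motor neurons, 6.08 and 5.67 in SMA white matter and 3.07 and 3.38 RPKM in WT white matter. Sesn2 ranked number 20 and Plk2 number 35 in likeness.

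Trp53 itself, the gene of p53, was at 14.5 and 22.2 RPKM in SMA motor neurons, against 7.69 and 5.80 RPKM in WT motor neurons, and at 34.8 and 18.8 RPKM in SMA white matter, against 18.2 and 10.2 RPKM in WT white matter (log2 1.30 ± 0.40 with limma adjusted p = 0.796, and 0.86 ± 0.40 with 0.741). Its inhibitors Mdm2 and Mdm4 differed less. Mdm2, which is also 1 of the other p53 targets taken up next, overlapped between SMA and WT in each region. It averaged 14.1 ± 3.73 RPKM in SMA and 13.5 ± 1.65 RPKM in WT motor neurons (log2 0.04 ± 0.29). In white matter it averaged 22.5 ± 0.319 RPKM in SMA and 21.9 ± 4.29 RPKM in WT (0.05 ± 0.29). Mdm4 averaged 4.93 ± 1.25 RPKM in SMA and 6.08 ± 0.0719 RPKM in WT motor neurons (SD for all means, n = 2 each). There both Mdm4 values in SMA, 5.81 and 4.05 RPKM, lay below both in WT, 6.13 and 6.03 RPKM.

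The wider pathway was read from 48 other p53 targets, listed from general knowledge of the pathway and without the 10 genes above. That list is what remains after genes with clear SMA differences were taken out. A total of 38 passed the filter on low values. In motor neurons 0 of these 38 passed limma with Benjamini-Hochberg adjustment, where 0% of all genes did. At unadjusted limma p under 0.05 in either direction stood 4 of the 38 (10.5%), where 4.37% of all genes did. All 4 were higher in SMA, where 2.01% of all genes were higher at that p. Both SMA libraries lay above both WT libraries for 11 of the 38 (28.9%), where 12.7% of all genes had that order, and below them for 2, where 15.5% of all genes had the reverse order. Over all 48, with the low genes kept, 11 lay above and 4 below. Fas, among the 11, reached 1 RPKM in SMA libraries only, so it passed the filter through the group where it was high. A positive difference was found for 30 of the 38, where 44.2% of all genes had one. The list's median log2 difference was 0.23 in motor neurons, where that of all genes was -0.05. In white matter the list did not stand out by these counts: 13 of 38 (34.2%) had the SMA libraries on top, where 39.7% of all genes had, and the median of 0.28 was next to the 0.27 of all genes. No gene of the list passed in white matter or over both regions either (smallest limma adjusted p = 0.741 and 0.761), with 2 of the 38 (5.26%) at unadjusted p under 0.05 in white matter, where 6.31% of all genes were, and 4 (10.5%) over both regions, where 5.99% of all genes were.

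The smallest p in motor neurons belonged to Pltp, a phospholipid transfer protein, at 30.0 and 20.9 RPKM in SMA and 11.5 and 9.35 RPKM in WT (log2 1.20 ± 0.27, limma adjusted p = 0.556). Btg2, an antiproliferative cofactor, was at 6.18 and 5.92 RPKM in SMA and 2.02 and 3.65 RPKM in WT motor neurons. The death-domain gene Pidd1, listed under its older symbol Lrdd, was at 1.12 and 4.50 RPKM in SMA and 0.955 and 0.0979 RPKM in WT motor neurons. Both had an adjusted p that rounds to 1. Fas, the death receptor, was listed at 0 in both WT motor neuron libraries and was at 2.74 and 1.00 RPKM in SMA motor neurons, but in white matter it was at 0.0695 and 5.21 RPKM in SMA and 0.178 and 0.417 RPKM in WT, with groups that overlapped. The adenylate kinase Ak1 was at 26.5 and 18.7 RPKM in SMA motor neurons and 12.6 and 14.5 RPKM in WT motor neurons, and at 4.70 and 4.91 RPKM in SMA white matter and 2.92 and 3.17 RPKM in WT white matter.

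In white matter the 3 smallest p on the higher side were those of the lipid hydrolase Abhd4 (56.8 and 54.3 RPKM in SMA, 31.1 and 39.6 RPKM in WT), the epoxide hydrolase Ephx1 (9.21 and 13.8 RPKM in SMA, 3.27 and 7.71 RPKM in WT) and Bloc1s2 (10.2 and 13.9 RPKM in SMA, 9.25 and 6.58 RPKM in WT). On the lower side stood Sertad1, a regulator of cyclin-dependent kinase, with a log2 difference of -0.46 ± 0.39 in motor neurons and -0.33 ± 0.39 in white matter. Fdxr (-0.44 ± 0.46) and Rrm2b (-0.32 ± 0.47) followed in motor neurons, and Siva1 (-0.18 ± 0.42) and Pml (-0.11 ± 0.48) in white matter.

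**Figure D4:**
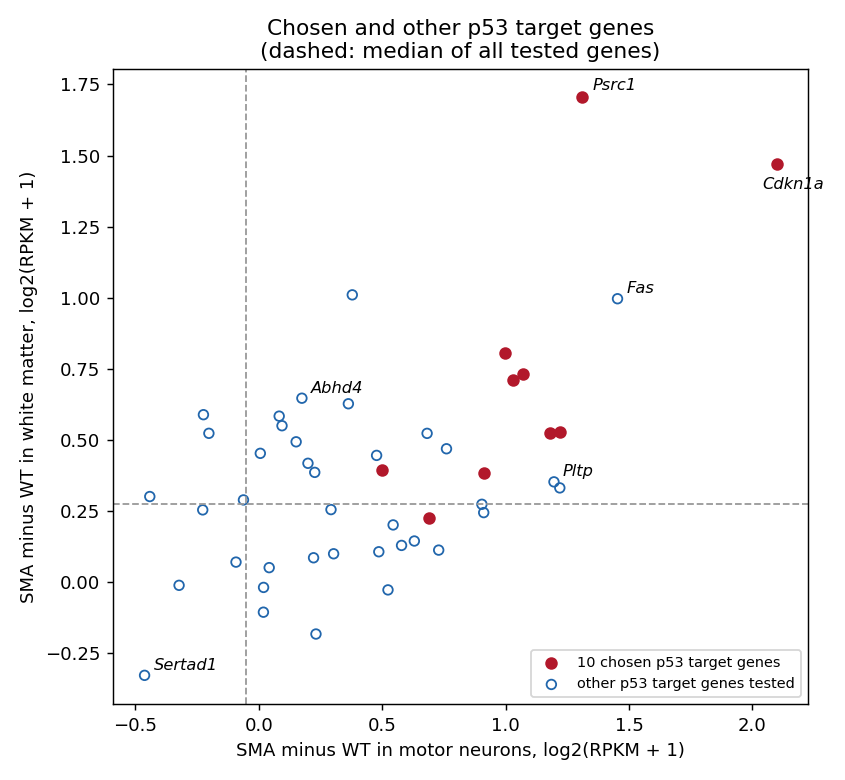
SMA minus WT difference in log2(RPKM + 1) in motor neurons (horizontal) and white matter (vertical) for the 10 chosen genes (filled) and the 38 other p53 targets tested (open), with the median of all tested genes dashed (-0.05 and 0.27). Cdkn1a and Psrc1 stand above the rest in white matter, and most open circles lie right of the motor neuron median.

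Markers of other cells differed between the same SMA and WT captures. In motor neuron captures, 9 microglia genes summed to 94.0 and 82.0 RPKM in SMA and to 28.6 and 33.5 RPKM in WT. Both SMA libraries lay above both WT libraries for 7 of the 9, where 12.7% of all genes had that order. The microglia genes Cx3cr1 and Csf1r were at 1.74 and 2.15 RPKM and at 9.13 and 3.80 RPKM in SMA, against 0.810 and 0.740 RPKM and 4.0 and 2.98 RPKM in WT. Oligodendrocyte markers summed to 79.1 to 114 RPKM in SMA and 40.4 to 64.1 RPKM in WT over 8 genes. Motor neuron markers summed to 566 and 574 RPKM in SMA and to 700 and 715 RPKM in WT. On average 0 of the 8 were higher in SMA, where 44.2% of all genes had a positive log2 difference. Astrocyte markers summed to 785 and 661 RPKM in SMA and 712 and 664 RPKM in WT, with the filament gene Gfap at 23.5 and 18.2 RPKM in SMA and 4.80 and 9.04 RPKM in WT. Fibroblast or meninges markers summed to 7.18 to 16.1 RPKM in SMA and 3.92 to 4.85 RPKM in WT, and interneuron markers to 69.9 and 71.6 RPKM in SMA and 62.0 and 38.6 RPKM in WT. Sums for endothelium and red blood cells overlapped between SMA and WT.

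In white matter captures, microglia markers summed to 354 and 414 RPKM in SMA and to 261 and 272 RPKM in WT, fibroblast or meninges markers to 216 and 132 RPKM in SMA and 58.4 and 96.9 RPKM in WT, and endothelium markers to 38.8 and 26.4 RPKM in SMA and 16.7 and 13.3 RPKM in WT. Oligodendrocyte precursor and astrocyte sums were also higher in both SMA libraries, at 544 and 394 RPKM in SMA against 384 and 304 RPKM in WT, and at 1428 and 1233 RPKM in SMA against 979 and 1112 RPKM in WT. Their ratios of SMA over WT sums were 1.36 and 1.27, in captures where the median log2 difference of all genes was 0.27. Interneuron sums had the same order, at 11.5 and 11.1 RPKM in SMA against 10.7 and 3.58 RPKM in WT. Oligodendrocyte sums overlapped, at 4605 and 2369 RPKM in SMA against 3683 and 1787 RPKM in WT. So did those of motor neuron, proliferating cell and red blood cell markers. Of all genes, 39.7% had both SMA white matter libraries above both WT ones. The part of these cells in the levels of the 10 genes was not tested.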

How the data were processed

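Laser-captured motor neurons and white matter of lumbar cord gave 8 libraries in 4 groups of 2. The deposited tables, 1 for each library, pair gene symbols with RPKM values that the authors computed. TopHat, bedtools and DESeq with the mm9 genome are named per the submitters' processing notes. Versions, annotation, counting rule and strand use were not given in the sources used here. Hence antisense overlap was not resolved, but none of the 10 genes overlaps another RefSeq gene. Of 23278 genes, 13948 reached 1 RPKM in at least 2 libraries, among them all 10 genes. limma 3.58.1 in R 4.3.3 was fitted to log2(RPKM + 1) with 4 group means over all 8 libraries, eBayes with trend, two-sided tests and Benjamini-Hochberg adjustment over all genes with a threshold of 0.05. The region contrast averages both genotypes. Tested on simulated data for that contrast (13631 genes), 18.55% of genes with a log2 difference of 1 were recovered, 78.9% at 2 and 93.3% at 4. The simulation changed far fewer genes than the 6468 called in the data, which makes the adjusted threshold stricter there. These shares are therefore not the recovery in the data.

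RPKM values step by what 1 read is worth, which gave the reads behind them. Of 17431 genes detected in 3 libraries or more, 17429 had a length that made all values whole to within 0.02 reads, and that length was the reference one for 94.1% of 410 short RNA genes. Tested on simulated data, all read numbers were right for 99.1% of 450 genes. Counting error is the only error such read numbers cover. The rest ran in Python (3.11.15; pandas 2.3.3, numpy 2.4.6), figures in matplotlib 3.10.9.

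The 10 genes, the 48 other targets, the marker lists and the contrasts were chosen with earlier results of these data known. Named genes are the 10, the other targets with the 3 smallest p on each side of a contrast, Trp53, Mdm2 and Mdm4, the 5 genes most like Cdkn1a, Smn1 and the markers. The labels name no animals, and the p-values rest on library-to-library spread alone. The 2 libraries of each group differ in sex by Xist, so that spread holds animal and sex differences besides technical ones. The 2 regions may share animals. Alternatives changed the pseudocount, filter, scaling, variance prior, replicate block, libraries fitted and, added after seeing the data, the unit (voom on recovered reads).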

Additional observations from a re-analysis of the deposited data

How the results depend on the processing

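The count of genes that differed between the regions, 6468, was 4939 to 7594 when each library was left out in turn, and 6360 with the replicate block. The number of the 10 genes called between the regions was 7, and 4 to 7 with a library left out, the low value without WT motor neuron replicate 2 or WT white matter replicate 1. For SMA against WT in motor neurons 0 genes passed, and 0 to 123 with a library left out, the 123 without SMA motor neuron replicate 1, and 1 gene with no filter on low values. In white matter 0 passed, and 0 to 1 with a library left out (1 without either SMA motor neuron replicate), 1 after quantile normalization, 1 with only the compared libraries and 1 by voom on recovered reads. Over both regions 0 passed, and 0 to 8 with a library left out (8 without SMA motor neuron replicate 1, 5 without replicate 2, 1 without WT white matter replicate 2), 2 with a pseudocount of 0.1, 1 with a filter of 5 RPKM, 3 after quantile normalization and 1 by voom. The interaction gave 0, and 0 to 17 with a library left out, the 17 without SMA motor neuron replicate 1. The cause of these shifts was not tested. None of the other p53 targets passed under any of the 17 alternatives in motor neurons or white matter or the 16 over both regions.

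Signs turned for Ccng1 and Perp when single libraries were left out: the Ccng1 difference ranged from -0.87 to 1.86 in motor neurons and -0.11 to 0.90 in white matter, and that of Perp from -0.28 to 0.73 in white matter. Between the regions Ccng1 ranged from -1.08, a call (limma adjusted p = 0.00523) without SMA motor neuron replicate 1, to 0.29 without SMA motor neuron replicate 2. Plk2 was called with median-of-ratios scaling (limma adjusted p = 0.0498) and without SMA motor neuron replicate 2 (0.0249), over a range of 0.0249 to 0.283. Cdkn1a ranged from 2.03 to 2.17 in motor neurons and from 1.10 to 1.85 in white matter with a library left out. Replicate numbers are shared between groups, but over the 6 pairs of groups the deviations of same-numbered libraries correlated by -0.35 (SMA motor neurons with WT white matter) to 0.07, with 0.07 between SMA and WT motor neurons, 0.01 between SMA and WT white matter, 0.05 between the regions in SMA and -0.00246 between the regions in WT, so the replicate block is not read as pairing. The fewest reads behind a value of the 10 genes were 12, for Psrc1 in WT motor neuron replicate 2, so the Psrc1 ratio in motor neurons is the one that depth limits most.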
